A study of Sus scrofa with 12 samples.

Results

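The genes described here serve the uptake and breakdown of milk macromolecules in the sucking intestine. They were listed by name as endocytic receptors and their adaptors (FCGRT, CUBN, AMN, DAB2, LRP2), lysosomal proteases (CTSB, CTSL, LGMN) and a regulator of the neonatal enterocyte (PRDM1). Of these 9 names, 4 (AMN, DAB2, CTSB, CTSL) stood in the gene name column of the expression table, in 6 of its 41264 rows, and rows that shared a name were summed. Another 3 (CUBN, LGMN, PRDM1) stood there only under an Ensembl gene ID, in 4 rows, and were added through a table that pairs IDs with symbols. The description therefore covers 7 of 17049 gene names. FCGRT and LRP2 were matched neither by name nor by ID and were not analysed here. RNA-seq was performed on the jejunum of 12 piglets in 4 groups of 3. W_Con were sucking piglets of 21 days of age whose sows received a basal corn and soybean meal diet. PW_Con were weaned piglets of 28 days from sows on the same diet, 7 days after the sow was taken away. W_Res and PW_Res were piglets of the same ages whose sows received that diet with 300 mg/kg resveratrol, a plant polyphenol, in gestation and lactation. Piglets were fostered between sows of one diet, and resveratrol was given to the sows. Weaning and a further 7 days of age cannot be told apart in this design.

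The enterocyte of a sucking mammal takes up intact proteins from the lumen. Cubilin (CUBN) is a large receptor without a membrane span of its own. Amnionless (AMN) anchors it in the apical membrane, and the pair binds intrinsic factor with vitamin B12 and other luminal proteins. DAB2 is a clathrin adaptor that carries such receptors into coated pits. The cargo is then degraded in lysosomes by proteases such as cathepsin B (CTSB), cathepsin L (CTSL) and legumain (LGMN), an asparaginyl endopeptidase that also processes the cathepsins. PRDM1 (Blimp-1) is a transcriptional repressor known from mice to hold the intestinal epithelium in its sucking state, and it is also a regulator of plasma cells and of T cells.

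Expression was measured as FPKM, fragments per kilobase of exon relative to the mapped reads of a library. FPKM is no read count, so that the depth behind a single gene is unknown. Markers of epithelium were present in every library, for instance VIL1 at 296 to 1062 FPKM. The libraries nevertheless stood apart from each other in 2 respects that the labels do not name. First, FABP6, a bile acid binding protein typical of the distal small intestine, was above 1000 FPKM in 7 libraries and below 20 FPKM in 4 (W_Con 3, W_Res 2, PW_Res 2 and PW_Res 3), with 128 FPKM in W_Res 1. A score, the mean log2(FPKM + 1) of 8 distal markers minus that of 10 proximal markers, was below 0 in those same 4 libraries (-2.16 to -1.01) and 0.52 to 3.17 in the others. Second, the summed level of 7 smooth muscle markers was 3979 FPKM in W_Res 2 and 1825 FPKM in W_Res 1, against 155 to 670 FPKM in the other 10 libraries. All 12 libraries are labelled jejunum.

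CUBN varied more between piglets than any other of the 7 genes. It stood at 57.4, 18.9 and 0.149 FPKM in the W_Con piglets and at 1.96, 29.4 and 1.69 FPKM in PW_Con. The W_Res piglets had 9.67, 0.202 and 76.7 FPKM, and the PW_Res piglets 57.1, 6.60 and 0.734 FPKM. Every group thus held at least one piglet above 29 FPKM and at least one below 2 FPKM, and the highest library was 514 times the lowest. The sum is made up of 2 rows, with means of 17.7 and 4.04 FPKM, and each of them was highest in W_Con 1, W_Res 3 and PW_Res 1.

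AMN, its membrane anchor, was listed at lower levels. The values were 5.57, 4.89 and 3.28 FPKM in W_Con, 3.54, 10.1 and 1.54 in PW_Con, 1.80, 5.29 and 10.1 in W_Res, and 24.0, 3.46 and 2.81 in PW_Res. A single PW_Res piglet accounted for the highest value, and the 4 groups overlapped.

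DAB2 had the narrowest range of the 7 genes over the 12 libraries, the highest value being 2.86 times the lowest. Sucking piglets had 12.9, 9.62 and 7.97 FPKM in W_Con and 10.9, 17.6 and 12.9 FPKM in W_Res. Weaned piglets had 6.14, 6.71 and 9.46 FPKM in PW_Con and 6.45, 6.34 and 6.78 FPKM in PW_Res. Of the 6 weaned piglets, 5 lay below the lowest sucking piglet, and the exception was PW_Con 3.

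**Figure D1:**
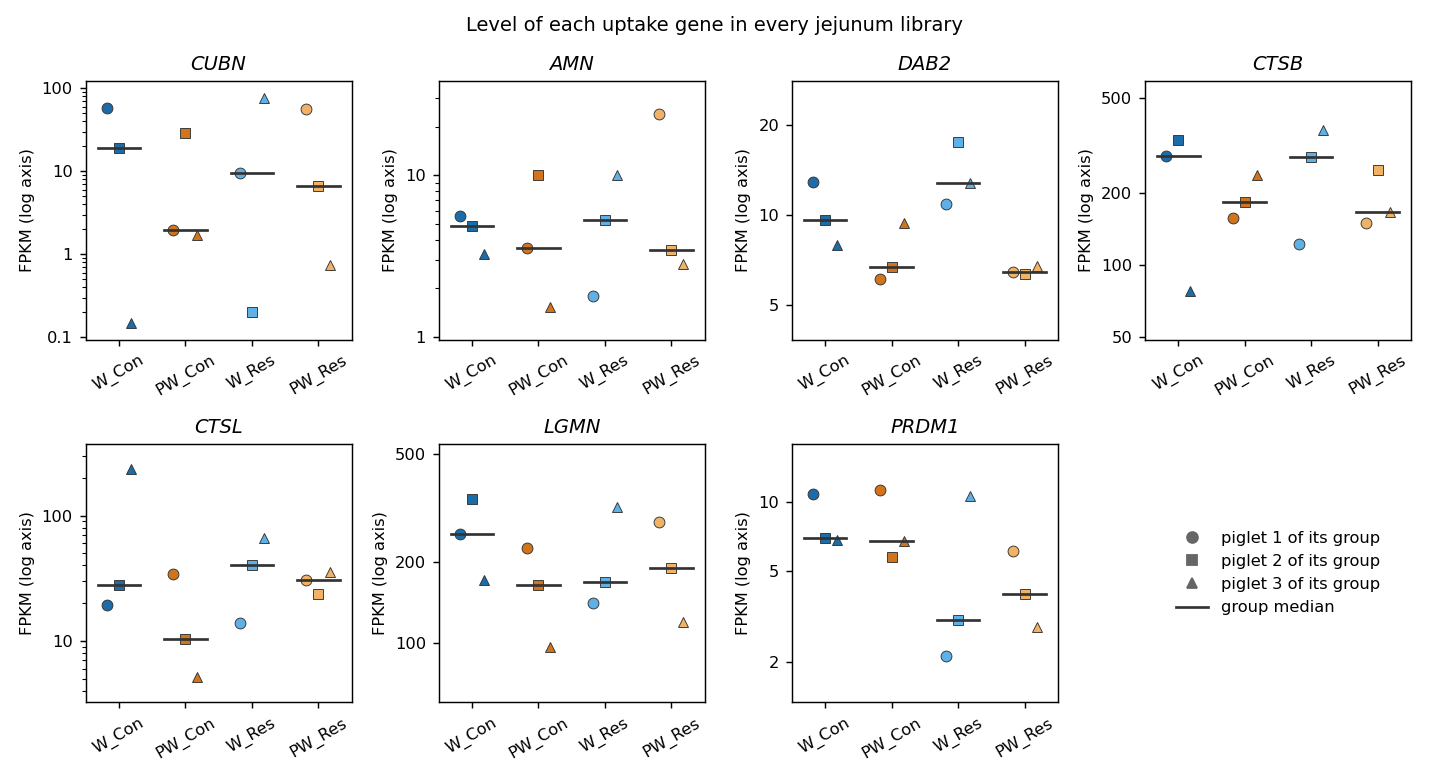
FPKM of the 7 genes in each of the 12 jejunum libraries, on a log axis of its own for each gene, by group (W_Con and W_Res sucking, PW_Con and PW_Res weaned). Symbols mark the piglet number within a group and carry no pairing, and bars are group medians. CUBN spans 0.149 to 76.7 FPKM with high and low piglets in every group, while DAB2 stays between 6.14 and 17.6 FPKM.

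Of the 3 proteases CTSB, CTSL and LGMN, legumain and cathepsin B were the more abundant. LGMN had a mean of 206 ± 78.4 FPKM (SD, n = 12) and CTSB of 218 ± 88.8 FPKM (SD, n = 12), so that their levels did not differ beyond the spread between piglets. LGMN was at 253, 342 and 171 FPKM in W_Con, at 225, 164 and 96.3 FPKM in PW_Con, at 140, 168 and 318 FPKM in W_Res, and at 280.4, 190.1 and 119 FPKM in PW_Res. CTSB was at 287, 332 and 78.1 FPKM in W_Con, at 158, 184 and 237 FPKM in PW_Con, at 122, 284 and 367 FPKM in W_Res, and at 150.2, 249.6 and 167 FPKM in PW_Res. For both genes the groups overlapped throughout.

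CTSL was lower, with a median of 29.3 FPKM over the 12 libraries, and it was set apart by one piglet. W_Con 3 had 234 FPKM, against 19.5 and 27.8 FPKM in the other W_Con piglets. The remaining values were 34.5, 10.3 and 5.16 FPKM in PW_Con, 13.8, 40.7 and 66.6 FPKM in W_Res, and 30.7, 23.8 and 35.2 FPKM in PW_Res. W_Con 3 is also the library with the lowest CUBN and the lowest CTSB. The pig annotation holds a related cathepsin, CTSV, for which RefSeq lists CTSL as a synonym. Its own row ranged from 78.1 to 187 FPKM with a median of 109 FPKM, and how reads were divided between the 2 genes is not known.

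PRDM1 ranged from 2.13 to 11.2 FPKM. It was at 10.9, 6.98 and 6.83 FPKM in W_Con and at 11.2, 5.74 and 6.73 FPKM in PW_Con. It was at 2.13, 3.06 and 10.7 FPKM in W_Res and at 6.13, 3.95 and 2.84 FPKM in PW_Res. All 6 piglets of control sows were above 5 FPKM, whereas 4 of the 6 piglets of resveratrol sows were below it. This limit was set after the values were seen, and the share of all gene names with such a split was not counted. The 4 were W_Res 1, W_Res 2, PW_Res 2 and PW_Res 3, all without FABP6 above 1000 FPKM. W_Con 3, also low in FABP6, had 6.83 FPKM. By their means over the 12 libraries the genes followed the order CTSB, LGMN, CTSL, CUBN (21.7 FPKM), DAB2 (9.48 FPKM), PRDM1 (6.43 FPKM) and AMN (6.37 FPKM). The means of neighbours in this order were closer than the larger of their SDs, with the exception of LGMN and CTSL.

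The weaning transition was first examined in control litters, weaned against sucking. In limma on log2(FPKM + 1), 0 of the 7 genes met the standard of the study, which asks for a log2 fold change beyond 1 in size at an unadjusted P under 0.05, and for 0 of them was the unadjusted P under 0.05. Over all 12611 gene names tested, 3.31% met the standard and 17.7% had an unadjusted P under 0.05. All 7 estimates were negative, with a median of -0.40 on the log2 scale, against -0.016 for all gene names. CTSL had the largest estimate, -1.94 (standard error, SE, 0.995, 95% interval -4.27 to 0.40, adjusted p = 0.359 from limma), with 93.8 ± 122 FPKM (SD, n = 3) in sucking and 16.6 ± 15.7 FPKM (SD, n = 3) in weaned piglets. Without W_Con 3 its estimate was -0.85. It met the standard without W_Con 1 (-2.61) or without PW_Con 1 (-2.63). With the distal-minus-proximal score as a covariate the estimate was -0.19, and in the Ballgown linear model it was -3.46. LGMN had an estimate of -0.68 (SE 0.367, adjusted p = 0.380 from limma), with 2 of 3 weaned piglets below the lowest sucking piglet. DAB2 had -0.40 (SE 0.236, adjusted p = 0.419 from limma), also with 2 of 3 weaned piglets below. CUBN had -0.82 with an interval of -4.40 to 2.76, so that neither a large rise nor a large fall could be distinguished from no change. The estimates of AMN (-0.12), PRDM1 (-0.074) and CTSB (-0.041) were smaller than their standard errors.

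In litters of resveratrol sows, 0 of the 7 genes met the standard, against 4.75% of 13013 gene names, and 1 had an unadjusted P under 0.05, against 13.3%. This gene was DAB2. Its level was 13.8 ± 3.44 FPKM (SD, n = 3) in W_Res and 6.52 ± 0.229 FPKM (SD, n = 3) in PW_Res, a ratio of 0.473. The groups did not overlap, which was also so for 21.8% of all gene names (17.9% lower in weaned piglets, as DAB2 was), and the exact permutation test gave its smallest possible p of 0.1. The log2 fold change was -0.95 with an SE of 0.226 (95% interval -1.47 to -0.42, adjusted p = 0.311 from limma). The other 6 genes had estimates from -0.34 (CTSB) to 0.37 (AMN), and the median of the 7 was -0.13, against -0.16 for all gene names. With median-of-ratios rescaling the median of all gene names in this comparison moved to 0.011, and the estimate of DAB2 was then -0.74 (adjusted p = 0.350 from limma), while CUBN, CTSL, LGMN and PRDM1 turned to positive estimates of 0.018 to 0.15. In the Ballgown linear model the estimate of DAB2 was -0.37 (adjusted p = 0.999), and its unadjusted P was under 0.05 in each of the other alternatives.

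Over both diets, with 6 sucking and 6 weaned piglets, DAB2 was again the gene with the clearest difference. It had 12.0 ± 3.34 FPKM (SD, n = 6) in sucking and 6.98 ± 1.24 FPKM (SD, n = 6) in weaned piglets, and the exact two-sided permutation test gave p = 0.00433. On the log2 scale the difference was -0.68 (SE 0.176, 95% interval -1.06 to -0.29, adjusted p = 0.128 from limma), which is less than the fold change of the standard. Thus 0 of the 7 genes met the standard, against 1.34% of 12886 gene names, and 1 had an unadjusted P under 0.05, against 16.9%. With each library left out in turn the estimate for DAB2 stayed between -0.78 and -0.57. The other estimates were -1.06 for CTSL (SE 0.648), -0.47 for CUBN (1.22), -0.38 for LGMN (0.301), -0.19 for CTSB (0.360), -0.059 for PRDM1 (0.301) and 0.12 for AMN (0.504). Of the 7 genes, 6 had a negative estimate, and the median was -0.38, against -0.10 for all gene names. PRDM1 was positive with median-of-ratios rescaling (0.030) and with quantile normalization (0.050).

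**Figure D2:**
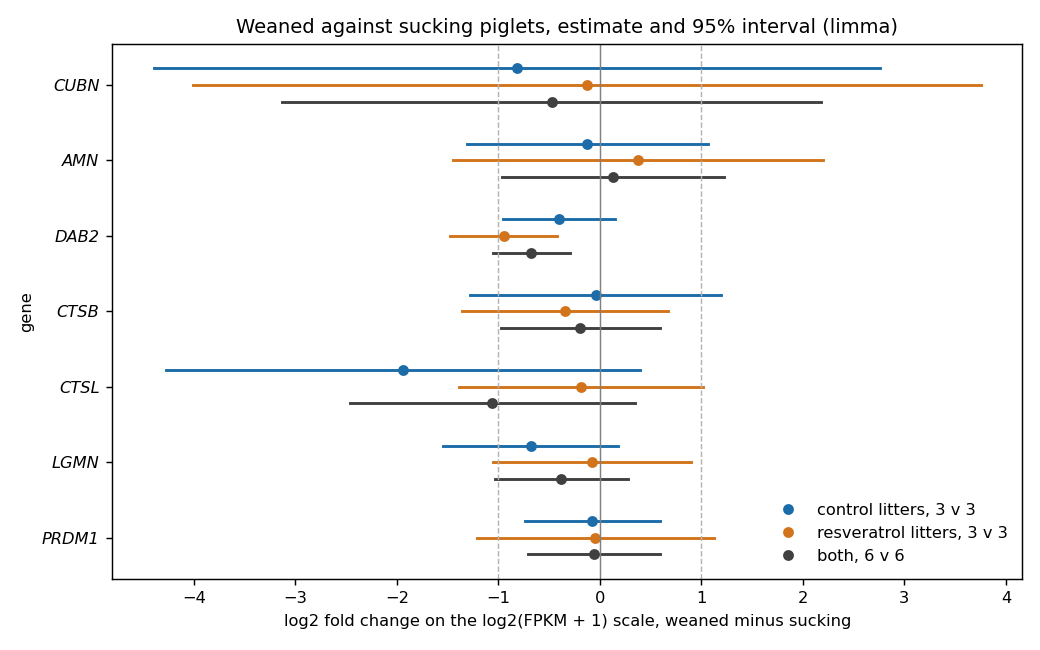
Log2 fold change of weaned against sucking piglets for the 7 genes by maternal diet and over both diets, with 95% intervals from limma. Dashed lines stand at -1 and 1, the fold change that the standard asks for. The interval excludes 0 only for DAB2 in resveratrol litters (-1.47 to -0.42) and over both diets (-1.06 to -0.29), and the intervals of CUBN reach beyond -3 in all 3 comparisons.

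Whether the weaning difference depended on the maternal diet was tested as an interaction. The standard was met by 0 of the 7 genes, against 7.76% of 12886 gene names, and the unadjusted P from limma was under 0.05 for 0 of them, against 13.7%. For DAB2 the difference between diets was -0.55 (SE 0.323, 95% interval -1.25 to 0.16, adjusted p = 0.463 from limma). With median-of-ratios rescaling, which moved the median of all gene names from -0.15 to 0.0011 here, it was -0.37. The larger weaning difference in resveratrol litters was therefore not shown to differ from that in control litters. For CTSL the difference between diets was 1.75 (SE 1.25, 95% interval -0.99 to 4.50).

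Markers of tissue compartments, the epithelium among them, were compared in the same libraries. In weaned against sucking piglets of resveratrol litters, all 7 smooth muscle markers tested were lower (median log2 fold change -2.16, all gene names -0.16), among them ACTG2 (-2.76), DES (-2.65), CNN1 (-2.48) and TAGLN (-2.16). All 7 met the standard, against 4.75% of all gene names. With median-of-ratios rescaling 6 of the 7 did, and 4 did without W_Res 1, 3 without W_Res 2 and 2 without PW_Res 3. All 6 endothelial markers tested were lower in estimate (median -0.81), 5 of them with an unadjusted P under 0.05, against 13.3% of all gene names. KDR, a receptor of vascular endothelial growth factor, met the standard (-1.01), which it did not with median-of-ratios rescaling (-0.81), without W_Res 2 (-0.71) or without PW_Res 3 (-0.84). The summed level of the 6 endothelial markers was 56.1 to 92.1 FPKM in W_Res, 32.1 to 39.3 FPKM in PW_Res, 24.7 to 63.9 FPKM in W_Con and 41.3 to 48.6 FPKM in PW_Con. None of these markers was at 0 in any library, while CDH5, VWF, CLDN5 and EMCN were not matched. The summed smooth muscle level was 670 to 3979 FPKM in W_Res and 205 to 644 FPKM in PW_Res. In control litters the 6 endothelial markers had 2 positive and 4 negative estimates (median -0.099), and 0 met the standard. The smooth muscle estimates there were positive for 6 of 7 markers and 0 met the standard, against 3.31% of all gene names. The mean log2(FPKM + 1) of the 7 was 5.49, 5.65 and 3.66 in W_Con and 4.98, 5.58 and 5.21 in PW_Con, so that this direction rests on W_Con 3. The keratins KRT19 (1.29 in control and 1.15 in resveratrol litters) and KRT8 (0.86 and 1.22) had positive estimates and met the standard in each case except KRT8 in control litters. In resveratrol litters KRT19 did not meet it without W_Res 2 (1.01), W_Res 3 (0.86), PW_Res 2 (1.07) or PW_Res 3 (1.0028), nor KRT8 without W_Res 3 (1.0048) or PW_Res 3 (0.96). Of the 9 epithelial markers, 6 had positive and 3 negative estimates in control litters (median 0.25) and 8 positive and 1 negative in resveratrol litters (median 0.53). Their summed level, in which KRT8, KRT20 and VIL1 weigh most by their means, was 2168 to 3653 FPKM in sucking and 4133 to 6236 FPKM in weaned piglets, whereas their mean log2(FPKM + 1) overlapped, at 7.26 to 7.85 in sucking and 7.78 to 8.22 in weaned piglets. For the difference of the weaning effect between diets, 7 of 7 smooth muscle markers (median -2.77, 5 past the standard) and 6 of 6 endothelial markers (median -0.82, 2 past the standard) had negative estimates, as had 9 of 10 markers of plasma cells and B cells (median -0.80, 1 past the standard). Of all gene names 7.76% met the standard in this comparison (median -0.15). Without W_Con 3, 3 smooth muscle and 0 endothelial markers met the standard, against 633 of 12911 gene names.

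Over the 12 libraries DAB2 had a Pearson's r of 0.76 with the mean level of the endothelial markers (permutation p = 0.00349, adjusted p = 0.0733 over 42 relations, Spearman's rho 0.69 with permutation p = 0.0173). Without the 2 libraries farthest from the median r was 0.75. With the epithelial markers r was -0.78 (permutation p = 0.0029, adjusted p = 0.0733, rho -0.76 with permutation p = 0.00555), and -0.59 without the 2 farthest libraries. With the smooth muscle markers r was 0.67 (permutation p = 0.0163, adjusted p = 0.162, rho 0.58 with permutation p = 0.0528), and 0.47 without the 2 farthest libraries. With macrophage markers r was 0.035 (permutation p = 0.914, rho 0.056 with permutation p = 0.871), and 0.64 without the 2 farthest libraries. These r pool the groups, and none was computed within groups. A difference between groups and a relation between piglets therefore cannot be told apart in them. After W_Res 1 and W_Res 2, the libraries with the highest smooth muscle level, were left out, the weaning estimate of DAB2 over both diets was -0.56 (SE 0.183, adjusted p = 0.155 from limma). The part of these compartments in the DAB2 difference was not tested beyond that. In bulk tissue, fewer cells of a type and less RNA per cell cannot be told apart.

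**Figure D3:**
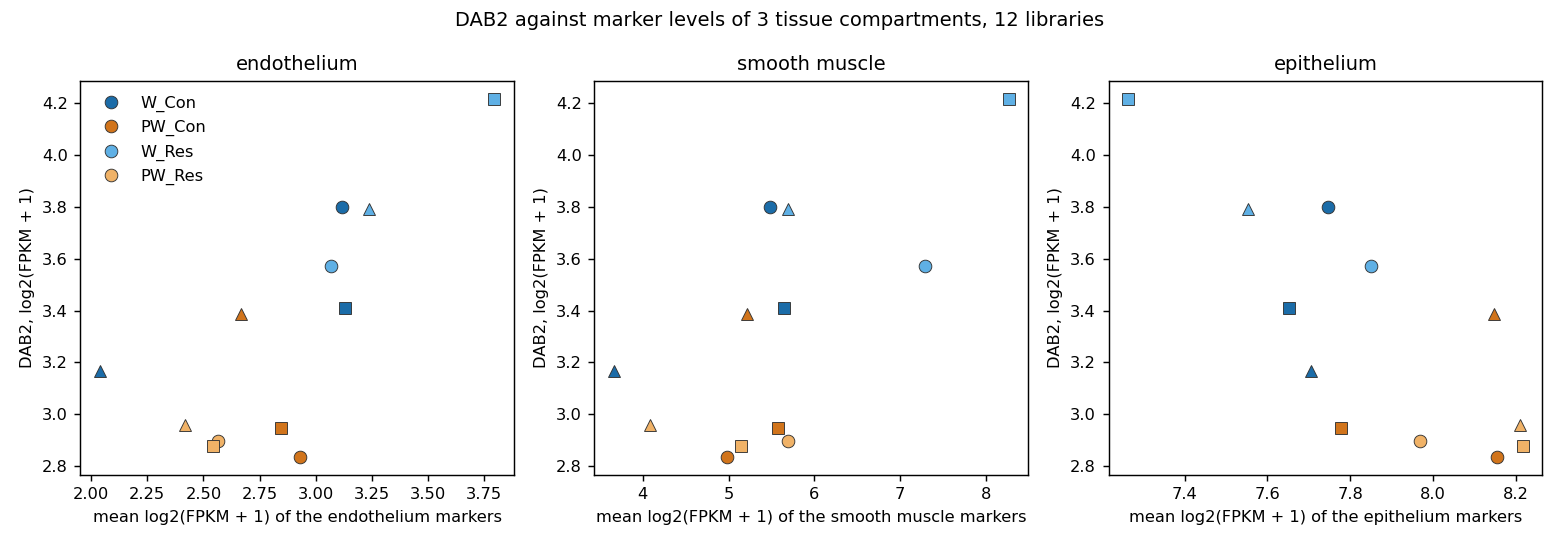
DAB2 as log2(FPKM + 1) against the mean log2(FPKM + 1) of the endothelial, smooth muscle and epithelial markers in the 12 libraries, coloured by group, with symbols for the piglet number as before. With the groups pooled, DAB2 lies higher where the endothelial level is higher (r 0.76) and lower where the epithelial level is higher (r -0.78). No r was computed within groups. W_Res 2, at 17.6 FPKM, is at the end of all 3 plots.

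CUBN was compared with the distal and proximal markers. In the 7 libraries with FABP6 above 1000 FPKM CUBN ranged from 1.69 to 76.7 FPKM with a median of 29.4, and in the 4 libraries with FABP6 below 20 FPKM it ranged from 0.149 to 6.60 FPKM with a median of 0.468. These limits were set after the values were seen. The ranges overlapped, since PW_Con 1 and PW_Con 3 combined FABP6 of 9621 and 6518 FPKM with CUBN below 2 FPKM. Among the 8 libraries with a score above 0, the r with the score was 0.097 for CUBN, 0.63 for PRDM1 and 0.55 for AMN, and from -0.50 (DAB2) to 0.10 (CTSB) for the other 4 genes, given as a description. The 4 libraries low in FABP6 had CTSL of 23.8 to 234 FPKM, against 5.16 to 66.6 FPKM in the 7 libraries high in FABP6, and PRDM1 of 2.84 to 6.83 FPKM, against 5.74 to 11.2 FPKM. W_Res 1, between these limits in FABP6, had CUBN of 9.67 FPKM, CTSL of 13.8 FPKM and, at 2.13 FPKM, the lowest PRDM1 of all libraries. The score fell into separate clusters over the 12 libraries, so that no correlation across all of them is given, and the part of intestinal position in these levels was not tested.

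Of these markers, 1 of 8 distal and 2 of 9 proximal also met the standard for weaning in control litters, against 3.31% of all gene names. The paper had already reported FABP6, NR1H4, SLC51A, PYY and, by Ensembl gene ID, SLC10A2 as raised by weaning in these control libraries. It listed SLC40A1, also by ID, among the lowered genes. The directions of these genes are therefore not independent of that report. In control litters 8 of 8 distal markers had positive estimates (median 1.11), with SLC51A, a basolateral bile acid transporter subunit, past the standard (1.26), though not without W_Con 3 (0.92). At the same time 8 of 9 proximal markers had negative estimates (median -1.02), with SLC40A1, the iron exporter (-1.92), and GIP, an incretin hormone (-1.38), past the standard, SLC40A1 not without PW_Con 1 (-1.82) or PW_Con 3 (-1.92) and at -1.07 without W_Con 3. In resveratrol litters 4 of 8 distal markers had positive and 4 negative estimates (median -0.036), 5 of 9 proximal markers had positive and 4 negative estimates (median 0.0092), and for 0 of either list was the unadjusted P from limma under 0.05. With the score as a covariate, 2 of the 7 genes met the standard in control litters, against 484 of 12611 gene names. CUBN was then lower in weaned piglets by a log2 fold change of -3.53 (SE 1.16, adjusted p = 0.311 from limma) and CTSB by -1.05 (SE 0.308, adjusted p = 0.291 from limma). The 3 W_Con piglets were spread from -2.16 to 2.33 in score and the 3 PW_Con piglets lay between 2.73 and 2.83. The groups thus did not overlap in score, and the fit cannot fully tell the score and weaning apart. Without the covariate, CUBN was at -2.45 with W_Con 3 left out (adjusted p = 0.353 from limma) and at 0.38 with W_Con 1 left out. In resveratrol litters the covariate left CUBN at -0.026 (SE 0.568). Over both diets, leaving out the 4 libraries low in FABP6 gave -1.21 for CUBN (SE 1.07), -0.63 for DAB2 (SE 0.194, adjusted p = 0.437 from limma) and -0.63 for CTSB (SE 0.339). In that fit 0 of the 7 genes met the standard, against 177 of 12822 gene names.

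**Figure D4:**
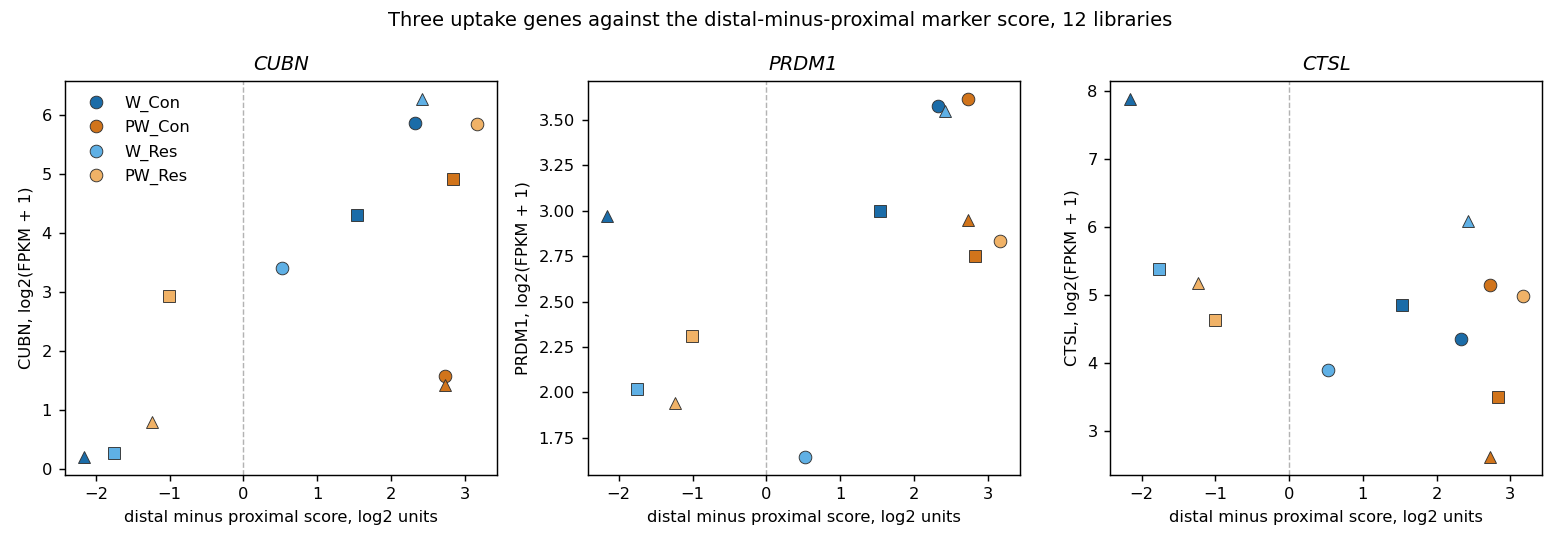
CUBN, PRDM1 and CTSL as log2(FPKM + 1) against the distal-minus-proximal marker score in log2 units for the 12 libraries, coloured by group, with the dashed line at a score of 0. The 4 libraries left of the line have CUBN of 0.149 to 6.60 FPKM, and PW_Con 1 and PW_Con 3 have low CUBN at a high score.

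Maternal resveratrol was compared with the control diet at each age. At 21 days 0 of the 7 genes met the standard, against 4.47% of 13186 gene names, and for 0 of them was the unadjusted P from limma under 0.05, against 13.3%. The lowest adjusted p belonged to PRDM1, with an estimate of -0.78 (SE 0.482, adjusted p = 0.497 from limma), where 2 of 3 W_Res piglets lay below all W_Con piglets. Without W_Res 3 PRDM1 met the standard (-1.35, adjusted p = 0.198 from limma). Of 10 T cell markers 8 were lower in W_Res, all 8 with an unadjusted P under 0.05 and 5 of them past the standard (median -1.10), among them GZMA, granzyme A (-2.61), and CD3E, a subunit of the T cell receptor complex (-1.78). Their summed level was 251 to 413 FPKM in W_Con and 64.2 to 126 FPKM in W_Res, and their part in the PRDM1 value was not tested. Of 8 markers of plasma cells and B cells 6 had positive and 2 negative estimates (median 0.32), 1 with an unadjusted P under 0.05, and 0 met the standard. DAB2 had an estimate of 0.40 (SE 0.262), with the endothelial and smooth muscle markers higher in W_Res in estimate (6 of 6, median 0.55, and 7 of 7, median 2.21, of which 6 met the standard). Without W_Con 3, W_Res 1 or W_Res 2, 1 of these 7 met it.

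At 28 days 0 of the 7 genes met the standard, against 1.81% of 12380 gene names, and 1 had an unadjusted P under 0.05, against 10.2%. PRDM1 had 7.90 ± 2.93 FPKM (SD, n = 3) in PW_Con and 4.31 ± 1.67 FPKM (SD, n = 3) in PW_Res, an estimate of -0.74 (SE 0.311, 95% interval -1.47 to -0.014, adjusted p = 0.485 from limma). The groups overlapped, and the exact permutation test gave p = 0.2. The unadjusted P was under 0.05 in 6 of the alternatives and above it in 11, among them both other scalings (-0.66 and -0.67), the Ballgown linear model (-0.42) and the fits without PW_Con 1 (-0.49) or PW_Res 3 (-0.53). The estimate was -0.34 with the distal-minus-proximal score as a covariate, and 2 of the 3 PW_Res piglets were among the libraries low in FABP6. PRDM1 is also expressed in plasma cells and T cells. At 28 days all 10 markers of plasma cells and B cells and all 10 of T cells had negative estimates, with medians of -0.55 and -0.68, and 0 and 1 of them met the standard. The summed T cell level was 201 to 249 FPKM in PW_Con and 62.9 to 145 FPKM in PW_Res. Their part in the PRDM1 value was not tested. CTSL had an estimate of 1.18 (SE 0.581, adjusted p = 0.532 from limma), with one PW_Res piglet above all PW_Con piglets, and it met the standard without PW_Con 1 (1.87). AMN had an estimate of 0.58 (SE 0.808), which was 2.09 (SE 0.662, adjusted p = 0.473 from limma) and past the standard with the score as a covariate. Without PW_Res 1, the piglet with 24.0 FPKM, the AMN estimate was -0.29. The comparisons at each age share their libraries with the weaning comparisons.

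Genes that work with the receptors were examined next. The light chain of the neonatal Fc receptor, B2M, was at 878 to 2767 FPKM, with weaning estimates of -0.038 in control and 0.23 in resveratrol litters. LRPAP1, the chaperone of the LDL receptor family, was at 54.0 to 94.7 FPKM with estimates of 0.16 and -0.16. GIF, gastric intrinsic factor, the ligand that cubilin takes up with vitamin B12, was at 0.857 to 4.92 FPKM with estimates of -0.36 and -0.53. Of 7 ligands and partners tested, CLU, the secreted chaperone clusterin, met the standard in control litters (1.74, adjusted p = 0.274 from limma), with 94.1 FPKM in PW_Con 2, 10.6 and 14.7 FPKM in the other PW_Con piglets and 5.44 to 7.89 FPKM in W_Con. Without PW_Con 2 its estimate was 0.81 and it did not meet the standard, nor did it without any one W_Con piglet (1.61 to 1.85). Its estimate in resveratrol litters was -0.83. Of 20 genes of the clathrin coat and the early endosome, 2 met the standard in control litters, against 3.31% of all gene names, both lower in weaned piglets, and 9 had an unadjusted P under 0.05 (3 higher and 6 lower), against 17.7%. These were CLTC, the clathrin heavy chain (-1.95, adjusted p = 0.125 from limma), and NUMB, an endocytic adaptor (-1.03, adjusted p = 0.132 from limma). NUMB did not meet it without W_Con 2 (-0.85), W_Con 3 (-0.95) or PW_Con 3 (-0.98). In resveratrol litters 0 of the 20 met the standard, 1 had an unadjusted P under 0.05 in limma, and the estimates were 0.58 for CLTC and -0.15 for NUMB. The median over the 20 genes was -0.13 in control litters (all gene names -0.016) and 0.11 in resveratrol litters (all gene names -0.16). For the difference of the weaning effect between diets 2 of the 20 met the standard, against 7.76% of all gene names, among them CLTC (2.53). For resveratrol at 21 days 1 did, CLTC (-2.07), against 4.47%. Of the 7 ligands and partners, CLU met the standard in these 2 comparisons (-2.57 and 1.02).

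Of the other listed lysosomal genes, those tested were 10 of 13 proteases, 3 of 5 cysteine protease inhibitors, 27 of 29 genes of the membrane and proton pump, 20 of 25 glycosidases, sulfatases and activators, and 3 of 5 transcription factors, the rest being unmatched or below the minimum. None of those tested met the standard for weaning within either diet. Among 10 other lysosomal proteases 7 had positive and 3 negative estimates in control litters, and 2 had positive and 8 negative estimates in resveratrol litters, where 3 of the negative ones had an unadjusted P under 0.05, against 13.3% of all gene names. The most abundant of them were CTSZ, cathepsin Z, with a mean of 207 FPKM (0.30 in control and -0.59 in resveratrol litters), and CTSH, cathepsin H, with 175 FPKM (-0.00075 and 0.22). Cystatin C (CST3), a secreted inhibitor of cysteine cathepsins, had a mean of 603 FPKM and estimates of 0.52 and -0.61, and CST7 had a mean of 3.23 FPKM (0.025 and -0.27). Of the 27 genes of the lysosomal membrane and proton pump in control litters 14 had positive and 13 negative estimates, and of those with an unadjusted P under 0.05, 2 were higher and 4 lower, against 17.7% of all gene names in either direction. The most abundant were ATP6V0C at 0.54 (adjusted p = 0.172 from limma) and LAMP1 at 0.16. In resveratrol litters 8 of 26 had positive and 18 negative estimates, against 16 and 10 with median-of-ratios rescaling. Of 20 glycosidases, sulfatases and their activators, 12 had positive estimates in control litters and 1 in resveratrol litters, where median-of-ratios rescaling gave 4. At 21 days 19 of these 20 were higher in W_Res in estimate (median 0.50, all gene names 0.087), or 16 with median-of-ratios rescaling. Of the 20, 7 had an unadjusted P under 0.05 in limma, against 13.3% of all gene names, and 0 met the standard. At that age the 7 smooth muscle and 6 endothelial markers were all higher in W_Res in estimate (medians 2.21 and 0.55). Their part in the 21-day differences was not tested. For the difference of the weaning effect between diets, 4 of the 20 met the standard and 7 had an unadjusted P under 0.05, all of them lower, against 7.76% and 13.7% of all gene names. The 4, named after their values were seen, were GAA (-1.14), SGSH (-1.06), SMPD1 (-1.03) and MANBA (-1.01), and with median-of-ratios rescaling 0 of the 20 met the standard, while for 4 the unadjusted P from limma was under 0.05. Without PW_Con 1, 1 of the 20 met it, and without W_Res 2, 2 did. Among the other proteases PRCP (-1.19) and CTSC (-1.06), and among the membrane genes NPC2 (-1.09) and CLCN7 (-1.02), met it as well, also named after their values were seen. Smooth muscle and endothelial markers had negative estimates in the same comparison, and their part in these differences was not tested. PSAP, the precursor of the saposins, and GUSB, beta-glucuronidase, were the most abundant, with weaning estimates of -0.23 and 0.095 in control litters and -0.33 and -0.0044 in resveratrol litters. Of the lysosomal transcription factors 3 were tested, among them TFE3 (0.19 and -0.019). A list of enzymes of the sucking and of the adult enterocyte pooled both kinds, so that no direction is read from it, and LCT and MGAM were not matched. Of its 8 enzymes tested 0 met the standard for weaning, FBP1 had an unadjusted P under 0.05 in control litters (-0.93), and MME had one over both diets (-0.95). ANPEP, aminopeptidase N (0.030 and -0.33), and ASS1, argininosuccinate synthase (-0.13 and -0.34), were the most abundant. Of 9 macrophage markers tested, 0 met the standard in either comparison, while 1 had an unadjusted P under 0.05 in control litters and 0 in resveratrol litters in limma. Of 10 plasma cell and B cell markers, CD79B (2.05) and POU2AF1 (1.62) met the standard in control litters, against 3.31% of all gene names. They had 37.5 and 22.2 FPKM in PW_Con 2. Without that piglet their estimates were 0.93 and 0.83 and did not meet the standard. CD79B also missed it without any one W_Con piglet (1.92 to 2.22), and POU2AF1 without W_Con 1 (1.64) or W_Con 2 (1.33).

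The 7 genes were also compared with each other over the 12 piglets, in 21 pairs, of which 0 had an adjusted p under 0.05. CUBN and its anchor AMN had an r of 0.67 (permutation p = 0.0151, adjusted p = 0.161, rho 0.66 with permutation p = 0.0235), and 0.63 without the 2 libraries farthest from the median of CUBN. LGMN had an r of 0.66 with CUBN and of 0.65 with AMN (permutation p = 0.0230 and 0.0206, adjusted p = 0.161 for both, rho 0.59 and 0.64 with permutation p = 0.0457 and 0.0274). Without the 2 libraries farthest from the median these were 0.61 and 0.82. With values centred on their group means the relations of CUBN with AMN, CUBN with LGMN and AMN with LGMN had an r of 0.68, 0.68 and 0.74. LGMN and PRDM1 had an r of 0.56 (permutation p = 0.0564, adjusted p = 0.296, rho 0.64 with permutation p = 0.0292), 0.79 without the 2 farthest libraries and 0.75 with values centred on group means. W_Res 3 and PW_Res 1 were among the 3 highest libraries for each of CUBN, AMN and LGMN. CTSL and CTSB had an r of -0.32 (permutation p = 0.313, adjusted p = 0.603, rho -0.028 with permutation p = 0.939), and 0.047 without the 2 farthest libraries, and DAB2 had an r between -0.070 and 0.48 with the others.

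Of 9283 gene names that have a symbol and average 1 FPKM or more, the following were most like each gene over the 12 libraries by Pearson's r of log2(FPKM + 1), given as a description. For CUBN these were SLC13A1, a sodium sulfate cotransporter (r 0.92), MEP1A, a subunit of the brush border protease meprin (r 0.90), and CHGB, chromogranin B (r 0.89). Those given for DAB2 are URI1 (r 0.95) and RETNLB, a goblet cell product (r 0.94). PRDM1 was most like RNF19B (r 0.94), CFLAR, an inhibitor of caspase-8 (r 0.91), and CXCL10, an interferon-induced chemokine (r 0.89). CTSL was most like PLGRKT (r 0.93), GDPD2 (r 0.92) and BST1 (r 0.91), and CTSB was most like LOXL4 (r 0.89), SPATA7 (r 0.84) and ZRANB3 (r 0.84). LGMN was most like TRIM44 (r 0.92), TMC5 (r 0.91) and PHLPP2 (r 0.86), and AMN was most like TMEM252 (r 0.91), RAPGEFL1 (r 0.90) and GZMK (r 0.89). How high the best r would be without any relation, with so many genes searched over 12 libraries, was not tested. No link between these genes is therefore read from the values.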

How the data were processed

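Jejunum RNA of 12 piglets was sequenced as poly(A) libraries with paired ends. The authors deposited gene FPKM, estimated with StringTie and Ballgown per the study's methods. The alignment is given as TopHat in those methods, while the submitters' processing notes name HISAT2 2.0, Bowtie 0.12.2 and StringTie 1.3.0 with the builds Sscrofa10.2 and mm8. No scaling beyond FPKM is stated, and summed FPKM was 313171 to 334469 per library. Of 41264 rows, 17650 (42.8%) have no gene name and were left out, and no value column was unmatched. FPKM of rows sharing a name were summed and analysed as log2(FPKM + 1), a scale that understates changes of genes with low FPKM.

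Groups were compared in R 4.3.3 with limma 3.58.1 (lmFit, eBayes with a mean-variance trend) over names with a mean of at least 0.5 FPKM, with Benjamini-Hochberg adjustment over all of them. The standard is that of the study. Exact permutation tests compared the mean log2(FPKM + 1) of single genes, and correlations used 100000 resamples (Python 3.11.15, SciPy 1.17.1, two-sided). Samples are 3 biological replicates per group by the labels, and p-values measure the spread between them. The listed genes and 16 further lists were chosen with earlier results of these data known. Named were all listed genes found, B2M, LRPAP1 and GIF, of each other list up to 4 genes past the standard in a weaning comparison within one diet or else its 2 most abundant, and the 3 names most like each gene. Results for 2 genes that this rule names are not reported here. FABP6 and distal markers are given beside results that move with them. In simulated data with 200 names changed by a log2 fold change of 2, the fit found 198 (99%) at the standard for weaning in control litters (12430 names) and 199 (99.5%) over both diets (12707 names). The changed names had a mean log2(FPKM + 1) above 2. Each name varied independently, without the differences between libraries that many genes share in the real data. How often a change in the genes described here would be found is therefore not known from it. The alternatives covered the pseudocount (0.1), the filter (none, or 5 FPKM), median-of-ratios and quantile scaling, a fit without the trend, the row with the highest mean in place of the sum, a replicate block, a distal-minus-proximal marker covariate, the Ballgown linear model, a fit of all 12 libraries together, and each library left out in turn. Relations to marker lists and leaving out groups of libraries that stand apart were added after seeing the data. Sequences and coordinates were not used here.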

Additional observations from a re-analysis of the deposited data

How the results depend on the processing

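DAB2 kept its negative sign for weaning in resveratrol litters and over both diets under every alternative run. With a pseudocount of 0.1 DAB2 met the standard in resveratrol litters (-1.04), so that 1 of the 7 genes did, against 1163 of 13013 gene names. Without W_Res 1 it did as well (-1.09), against 1049 of 12990 gene names. With the distal-minus-proximal covariate 2 of the 7 genes met the standard for weaning in control litters, against 484 of 12611 gene names. For the difference of the weaning effect 1 did (CUBN 3.39), against 1027 of 12886, and for resveratrol at 28 days 1 did, against 423 of 12380. With W_Res 1 and W_Res 2 left out, CTSL met the standard over both diets (-1.67), the 1 of the 7 genes to do so, against 287 of 12656 gene names. With one library left out, the number of the 7 genes past the standard was 0 to 1 for weaning within either diet or over both and for resveratrol at 21 and at 28 days. For weaning over both diets the 1 gene was CTSL without W_Res 1 (-1.43), against 240 of 12868 gene names.

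The 3 estimates with an unadjusted P under 0.05, DAB2 for weaning in resveratrol litters and over both diets and PRDM1 for resveratrol at 28 days, kept their sign throughout. The Ballgown linear model turned them for weaning in control litters (CUBN 1.04, CTSB 0.85 and PRDM1 0.28), for weaning in resveratrol litters (CTSB 0.58, CTSL 1.30, LGMN 0.64 and PRDM1 0.72) and for resveratrol at 21 days (CUBN 0.55, AMN -0.94, DAB2 -0.19 and CTSB -1.10). Median-of-ratios rescaling turned them for weaning in resveratrol litters (CUBN 0.018, CTSL 0.035, LGMN 0.15 and PRDM1 0.13), for weaning over both diets (PRDM1 0.030), for resveratrol at 21 days (AMN -0.00078) and for resveratrol at 28 days (CTSB 0.057). Quantile normalization did so for weaning in resveratrol litters (CUBN 0.0077 and PRDM1 0.19), over both diets (PRDM1 0.050) and for resveratrol at 21 days (AMN -0.030). A pseudocount of 0.1 gave CUBN 0.17 for weaning in resveratrol litters. The distal-minus-proximal covariate gave AMN -0.16 for weaning over both diets, CTSB 0.028 for the difference of the weaning effect and CUBN 0.091 for resveratrol at 21 days. Without W_Res 1 and W_Res 2, AMN was -0.27 over both diets. The cause of these turns was not tested.

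With one library left out, signs turned within these ranges. For weaning in control litters they were CUBN -2.45 to 0.38, AMN -0.69 to 0.37, CTSB -0.70 to 0.34 and PRDM1 -0.33 to 0.12. For weaning in resveratrol litters they were CUBN -1.65 to 1.35, AMN -0.49 to 0.86, CTSL -0.80 to 0.30, LGMN -0.38 to 0.27 and PRDM1 -0.42 to 0.53. Over both diets they were CUBN -1.19 to 0.15, AMN -0.29 to 0.37 and PRDM1 -0.23 to 0.19. For the difference of the weaning effect they were CUBN -0.83 to 2.32, AMN -0.37 to 1.07, CTSB -0.76 to 0.36 and PRDM1 -0.35 to 0.60. For resveratrol at 21 days they were CUBN -1.77 to 1.39, AMN -0.39 to 0.61, CTSB -0.40 to 0.72 and CTSL -1.25 to 0.52. For resveratrol at 28 days they were CUBN -0.78 to 1.75, AMN -0.29 to 1.15, DAB2 -0.26 to 0.019, CTSB -0.26 to 0.11 and LGMN -0.053 to 0.59.

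The number of gene names past the standard depended on the pseudocount and the minimum. For weaning in control litters it was 418, with 853 at a pseudocount of 0.1 and 227 at a minimum of 5 FPKM. In resveratrol litters it was 618, with 1163, 245 and, in the Ballgown model, 205. Over both diets it was 173, with 539 and 115, and 287 without W_Res 1 and W_Res 2. For the difference of the weaning effect it was 1000, with 364 at a minimum of 5 FPKM. For resveratrol it was 590 at 21 days, with 1008, 248 and 227 in these 3 settings. At 28 days it was 224, with 488, 122 and 148, and 423 with the distal-minus-proximal covariate. With one library left out the counts were 388 to 1049 for weaning in resveratrol litters, 633 to 1367 for the difference of the weaning effect, 394 to 944 for resveratrol at 21 days and 222 to 426 at 28 days. Rescaling by median of ratios moved the split into higher and lower names from 129 and 489 to 230 and 286 for weaning in resveratrol litters. It moved the split from 92 and 81 to 119 and 51 over both diets, from 233 and 767 to 388 and 518 for the difference of the weaning effect, from 394 and 196 to 299 and 239 for resveratrol at 21 days, and from 106 and 118 to 138 and 88 at 28 days. Quantile normalization gave 196 and 218 for weaning in resveratrol litters, 105 and 56 over both diets, and 387 and 430 for the difference of the weaning effect. For resveratrol it gave 250 and 259 at 21 days and 118 and 91 at 28 days.

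The labels do not say that replicate numbers pair the piglets. The paper describes a male piglet taken from each litter at each age. Which libraries share a litter is not given, and all fits but the replicate block treat the piglets as independent. The deviations of same-numbered libraries had correlations of -0.064, 0.089 and -0.011 in control litters and of -0.26, 0.11 and -0.23 in resveratrol litters. With the replicate number as a block, DAB2 had an estimate of -0.95 for weaning in resveratrol litters (adjusted p = 0.435 from limma), and 0 of the 7 genes met the standard in any of the 6 comparisons. The block moved no count of gene names past the standard by over 1.5 times. Read depth behind single genes is not known from FPKM.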
